A study of Mus musculus with 6 samples.

Results

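The genes of the MLL and SET1 histone methyltransferases were examined in maps of H3K4me3 and of HA-tagged ASH2L from mouse E14 embryonic stem cells. The 10 genes were Kmt2a, Kmt2b, Kmt2c, Kmt2d, Setd1a and Setd1b, which encode the catalytic subunits, and Ash2l, Dpy30, Wdr5 and Rbbp5, which encode the shared core. They were taken as a named list out of 21938 protein-coding genes, and every peak that overlapped a gene body or the 5000 bp upstream of it counted as a peak of that gene. Of the 59927 H3K4me3 peaks 24 did so, and of the 2464 ASH2L peaks 2 did so.

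MLL and SET1 complexes methylate lysine 4 of histone H3. In each complex a catalytic SET domain protein works with the shared core of WDR5, RBBP5, ASH2L and DPY30, which raises its activity. H3K4me3, the trimethylated form, marks the start sites of active genes, and in embryonic stem cells it is also found at many poised developmental genes.

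The maps came from CUT&RUN, which sequences the DNA that an antibody-guided nuclease releases around its target. The 6 samples fell into 3 groups of 2 duplicates, namely anti-HA on HA-ASH2L E14 cells, anti-H3K4me3 on the same line, and anti-HA on the parental E14 line, which lacks the transgene. All were treated with doxycycline for 48 h, and the sample labels give 1000000 cells per anti-HA experiment and 100000 cells per anti-H3K4me3 experiment. The study's methods instead give 1000000 cells for every experiment. The labels call the HA line a knock-in, whereas the study's methods describe a doxycycline-inducible HA-ASH2L transgene that was integrated by transposition and followed by picking of single colonies. The duplicates were merged before peaks were called, so each peak has a single value and no spread between cultures can be given. No peak list of the parental line was used here, and the part of HA signal that does not depend on the transgene was not tested. After redundant tags were removed, 25677963 tags remained for ASH2L and 27328071 for H3K4me3. Of these, 0.398% and 45.7% lay in peaks, so numbers of tags were compared only within a map.

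The H3K4me3 list did not mark the cell type in full. A peak lay over a start site of 3 of 8 pluripotency genes (Zfp42, Esrrb and Klf4), and none did so at Pou5f1, Nanog, Sox2, Tdgf1 or Dppa5a. It lay over a start site of 5 of 9 genes of terminally differentiated cells, and over one of 68.4% of all protein-coding genes. A gene without a listed peak may still carry the mark below the threshold of the peak caller, and whether the same holds for the gaps described for the MLL and SET1 genes was not tested.

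Promoter sequences from RefSeq (GRCm38.p6, from 250 bases before to 50 after a start) were found for 7 of the 10 genes. Those of Kmt2b, Setd1b and Ash2l are not shown. The following 5 are printed because they cover the start sites on which the results turn: the start of Dpy30 with both marks and its upstream start with neither, the start of Wdr5 with both marks, and the starts of Rbbp5 and Kmt2c with H3K4me3 alone. Each is written 5′ to 3′ on the strand of the gene, with CpG dinucleotides in capitals.
Dpy30 main start, chr17:74316384-74316683, minus strand: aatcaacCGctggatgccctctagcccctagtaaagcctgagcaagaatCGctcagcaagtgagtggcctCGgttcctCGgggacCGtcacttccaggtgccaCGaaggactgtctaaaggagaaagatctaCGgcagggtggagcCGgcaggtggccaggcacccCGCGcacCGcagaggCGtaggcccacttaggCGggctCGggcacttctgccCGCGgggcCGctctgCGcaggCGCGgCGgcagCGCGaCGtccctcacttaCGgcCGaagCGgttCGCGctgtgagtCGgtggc
Dpy30 upstream start, chr17:74323895-74324194, minus strand: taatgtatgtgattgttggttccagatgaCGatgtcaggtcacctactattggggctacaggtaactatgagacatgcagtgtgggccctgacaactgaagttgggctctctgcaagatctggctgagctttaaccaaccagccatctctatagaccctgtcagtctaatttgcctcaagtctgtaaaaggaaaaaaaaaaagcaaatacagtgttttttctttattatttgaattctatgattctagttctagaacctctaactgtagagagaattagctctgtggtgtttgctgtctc
Wdr5, chr2:27514897-27515196, plus strand: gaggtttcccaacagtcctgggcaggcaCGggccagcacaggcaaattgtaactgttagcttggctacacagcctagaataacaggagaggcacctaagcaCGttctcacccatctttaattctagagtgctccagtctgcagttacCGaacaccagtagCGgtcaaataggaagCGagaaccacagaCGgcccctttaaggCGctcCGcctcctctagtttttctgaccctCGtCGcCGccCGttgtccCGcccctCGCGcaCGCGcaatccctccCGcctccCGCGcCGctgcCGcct
Rbbp5, chr1:132477117-132477416, plus strand: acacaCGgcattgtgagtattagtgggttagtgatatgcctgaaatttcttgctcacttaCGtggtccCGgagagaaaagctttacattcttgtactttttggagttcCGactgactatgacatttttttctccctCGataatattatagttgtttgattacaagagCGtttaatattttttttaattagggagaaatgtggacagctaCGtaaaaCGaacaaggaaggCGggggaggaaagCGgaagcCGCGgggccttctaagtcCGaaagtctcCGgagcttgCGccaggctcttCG
Kmt2c, chr5:25498734-25499033, minus strand: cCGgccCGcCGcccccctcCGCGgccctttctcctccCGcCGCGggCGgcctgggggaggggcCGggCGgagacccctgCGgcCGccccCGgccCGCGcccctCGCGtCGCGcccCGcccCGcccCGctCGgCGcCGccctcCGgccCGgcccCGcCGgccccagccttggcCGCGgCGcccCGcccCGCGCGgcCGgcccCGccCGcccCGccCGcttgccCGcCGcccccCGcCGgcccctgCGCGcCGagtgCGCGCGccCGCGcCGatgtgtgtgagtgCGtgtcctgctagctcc

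These sequences differed widely in CpG content. Over all 32851 promoters of the same length the median was 7 CpG and the median GC content was 52.7%. The Kmt2c promoter held 56 CpG at 88.0% GC, a CpG number at percentile 99.8 of all promoters. The Dpy30 main start held 30 CpG at 66.3% GC, against 1 CpG at 40.7% GC for its upstream start. Rbbp5 held 16 CpG at 44.0% GC, a GC content below the median, and Wdr5 held 22 CpG at 59.0% GC. Of the promoters not printed, Kmt2a held 36 CpG, Setd1a 35 and Kmt2d 27, and other Dpy30 starts held 39 and 34.

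H3K4me3 covered a start site at 9 of the 10 genes. The exception was Setd1b. Counted as any peak from 1000 bp upstream to 100 bp downstream of an annotated start, 68.4% of protein-coding genes had such a peak. All 4 core genes and 5 of the 6 catalytic genes had one. An H3K4me3 peak anywhere at the gene was found for 10 of 10 members and for 76.2% of protein-coding genes. With so few genes and a background this high, the count describes these genes and does not set them apart. Among peaks not below the median fold enrichment of the list, 2 members (Ash2l and Dpy30) and 36.4% of protein-coding genes had a start site peak.

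**Figure D1:**
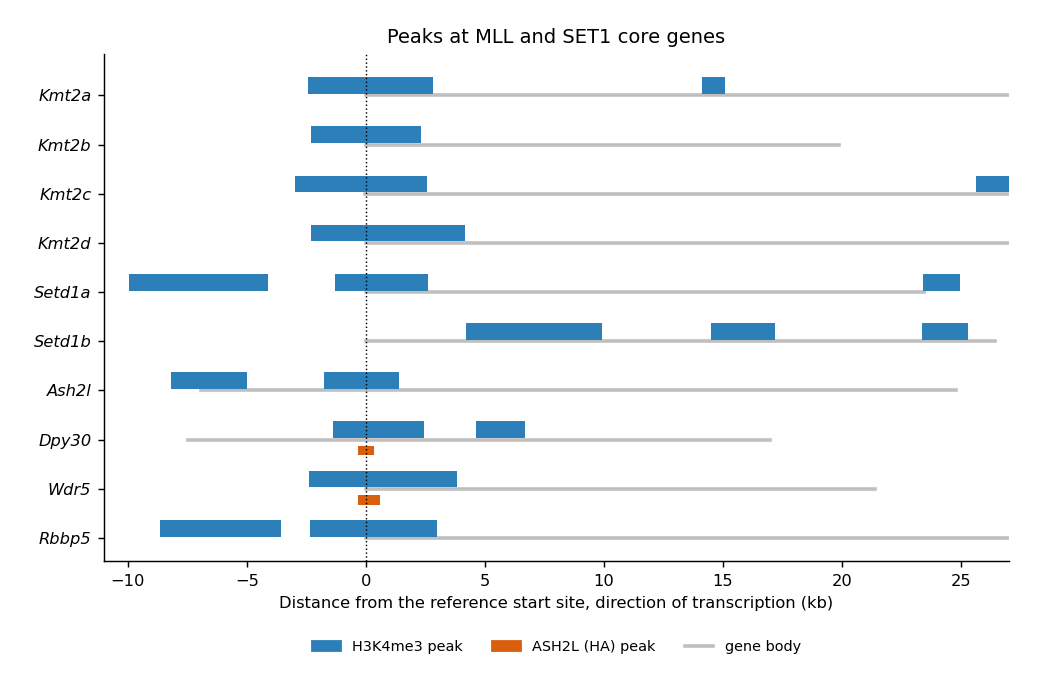
Peaks at the 10 genes, placed by distance in kb from the reference start site in the direction of transcription (horizontal axis), with 1 row per gene. Blue bars are H3K4me3 peaks, orange bars are ASH2L peaks and grey lines are gene bodies, and gene bodies and peaks beyond the axis are not drawn. A blue bar crosses the start line in every row but that of Setd1b, and orange bars appear at Dpy30 and Wdr5.

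The start site peaks were broad. The 10 peaks (Ash2l had 2) were 3163 to 6455 bp wide and their median width was 4944 bp, whereas that of the start site peaks of all protein-coding genes was 2647 bp, and each was wider than that median. They held 357 to 1169 tags with a median of 908, against 393, and 9 of the 10 were above it. Per kb, they held 112 to 209 tags with a median of 188, against 143 for all. The excess over all genes was thus greater in width than in tags per kb. The members were also long genes, with a median length of 27366 bp against 17425 bp, and the part of gene length in these widths was not tested.

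Among the catalytic genes of the MLL group, Kmt2a encodes the founding MLL protein, known for keeping Hox genes active. Its start site peak at chr9:44878468-44883733 spanned 5266 bp and held 1057 tags. The 95% exact Poisson interval, which covers counting error only, was 994 to 1123 tags. The summit lay 133 bp upstream of the start. Reaching 2437 bp upstream and 2828 bp into the gene, the peak was nearly balanced around the start, and its width was at percentile 92.1 of start site peaks.

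Kmt2b encodes the close relative of KMT2A that is known for H3K4me3 at poised promoters of embryonic stem cells. Its peak at chr7:30586406-30591027 was 4622 bp wide and held 964 tags (904 to 1027). It was the only peak at this gene. Per kb it held 209 tags, the most among the members.

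Kmt2c and Kmt2d encode the large methyltransferases known for H3K4me1 at enhancers. The Kmt2c start site peak at chr5:25496161-25501744 was 5584 bp wide with 1072 tags (1009 to 1138), and its summit lay 877 bp upstream of the reference start. The Kmt2d peak at chr15:98867047-98873501 was the widest of the members, 6455 bp with 996 tags (935 to 1060), and its summit lay 1018 bp upstream. In both genes the strongest point of the peak was thus displaced upstream. Each peak also held the start of a lincRNA on the other strand, 4831440E17Rik at Kmt2c and 5730414N17Rik at Kmt2d, and the Kmt2d peak held that of Gm49437 on the same strand.

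A noncoding start on the other strand was common in these peaks. Besides Kmt2c and Kmt2d it was found at Kmt2a (AC061963.1), Kmt2b (Mir3569, annotated as a miRNA) and Rbbp5 (6030442K20Rik). That makes 5 of the 9 members with a start site peak, whereas 13.7% of the protein-coding genes with an H3K4me3 start site peak had such a neighbour in it. The share was not compared among peaks of equal width.

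Setd1a and Setd1b encode the catalytic subunits of the SET1 complexes, known for the bulk of H3K4me3 in many cells. Setd1a had a start site peak at chr7:127775387-127779271, which was 3885 bp wide with 735 tags (683 to 790) and had its summit 373 bp inside the gene. At Setd1b no peak of either map covered an annotated start. Its nearest H3K4me3 peak, chr5:123146412-123152115, began 4219 bp downstream of the reference start and was 5704 bp wide with 688 tags (638 to 741). The paralogues thus differed in where the mark was listed, not in whether a broad peak was present at the gene.

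The Setd1b peak held 121 tags per kb at a fold enrichment of 4.17, and 2829 bp of it were exon. Further peaks followed inside the gene at chr5:123156668-123159378, with 203 tags, and at chr5:123165559-123167466, with 109 tags. All 3 peaks of Setd1b thus lay within the gene body, downstream of its 5′ end.

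Among the core genes, Wdr5 encodes the WD40 protein that binds the catalytic subunit. Its H3K4me3 peak at chr2:27512787-27519000 was 6214 bp wide and held 1169 tags (1103 to 1238), the most of any member. The peak extended 2370 bp upstream and 3843 bp into the gene, while its summit lay 34 bp upstream of the start. Rbbp5 encodes the partner through which ASH2L contacts the catalytic domain. Its peak at chr1:132475034-132480371 was 5338 bp wide with 852 tags (796 to 911) and a summit 74 bp inside the gene.

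Dpy30 encodes the small dimeric protein that binds the C-terminal part of ASH2L. Its peak at chr17:74314022-74317840 was 3819 bp wide with 750 tags (697 to 806), and it took in 5 annotated starts. The summit lay 40 bp upstream of the reference start. The remaining annotated start of Dpy30, at position 74323944, is that of transcript Dpy30-202 and lay in no peak of either map. It is the start whose promoter sequence held a single CpG.

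Ash2l encodes the core subunit that was tagged in these cells. A peak at chr8:25839400-25842562 covered 6 starts and was 3163 bp wide with 588 tags (541 to 638), and its summit lay 50 bp upstream of the reference start. A second peak, at chr8:25845784-25848964, lay over the upstream start of transcript Ash2l-204, at position 25847694. Its summit was 6 bp from that start, and it was 3181 bp wide with 357 tags (321 to 396). At nearly equal width the upstream start of Ash2l thus held fewer tags than the main start, with counting intervals that did not overlap. Unlike that of Dpy30, the upstream start of Ash2l did carry a listed peak. Starts outside every peak were not particular to Dpy30. The peaks of Ash2l held 6 and 1 of its 11 annotated starts, that of Kmt2b held 2 of 8 and that of Wdr5 1 of 3. Only at Setd1a were all annotated starts, 5 of 5, within the peak.

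**Figure D2:**
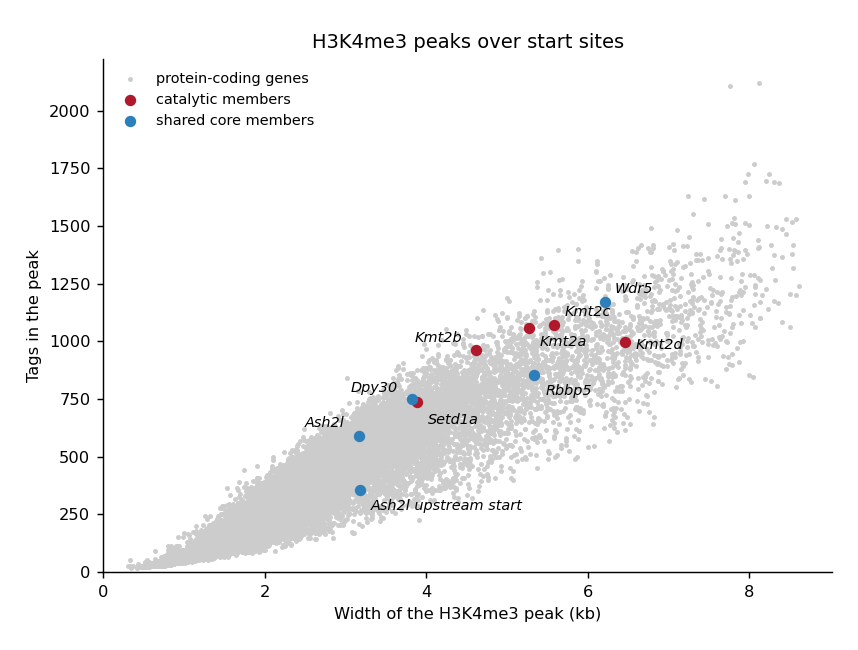
Width in kb (horizontal axis) and tags (vertical axis) of H3K4me3 peaks over start sites. Grey points are the peaks of protein-coding genes, red points the catalytic members and blue points the shared core members. The members lie between 3163 and 6455 bp, to the right of the median width of 2647 bp, and Wdr5 has the most tags, 1169.

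Ordered by tags per kb, the peaks ran from Kmt2b (209) through Kmt2a (201), Dpy30 (196), Kmt2c (192), Setd1a (189) and Wdr5 (188) to Ash2l (186). Rbbp5 (160), Kmt2d (154) and the upstream Ash2l start (112) followed. Neighbours in the first group had overlapping counting intervals, as did Rbbp5 and Kmt2d. The intervals separated Ash2l (171 to 202) from Rbbp5 (149 to 171), though only just, and Kmt2d (145 to 164) from the upstream Ash2l start (101 to 124). By role, the medians were 5266 bp and 996 tags for the 5 peaks of the catalytic genes. They were 3819 bp and 750 tags for the 5 peaks of the core genes, which include both peaks of Ash2l. The ranges overlapped.

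The fold enrichment at the summit gave a different order from the tags. It was 7.08 at Dpy30, 6.98 at the upstream Ash2l start and 5.18 at the main Ash2l start. It was lowest at Kmt2c, 3.35, although that peak was second in tags. The median of the members was 4.26, against 6.41 for start site peaks of all protein-coding genes, and 8 of the 10 peaks were below that value. The 5 peaks of at least 5000 bp had fold enrichments of 3.35 to 4.28 and the narrower ones of 4.25 to 7.08.

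The same order held across the genome. The median fold enrichment of start site peaks was 8.16 for widths up to 2000 bp (n = 4818) and 3.78 above 6000 bp (n = 758). The peak caller took its local background from up to 10000 bp around a peak in the same library, without a control, and the part of this in the decline was not tested. Tags per kb did not decline in the same way, with medians of 88.2 up to 2000 bp, 163 from 3000 to 4000 bp and 155 above 6000 bp. Within the class from 5000 to 6000 bp, in which Kmt2a, Kmt2c and Rbbp5 fell, the median was 4.24, and these genes had 4.14, 3.35 and 4.28. In the class from 3000 to 4000 bp the median was 5.83, and Dpy30 and the upstream Ash2l start were above it, whereas Setd1a (4.98) and the main Ash2l start (5.18) were below it. The p-value score, which grows with the negative logarithm of the p-value of the peak caller, was between 261 at Kmt2d and 906 at Dpy30, with a median of 553 for the members and 540 for all.

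**Figure D3:**
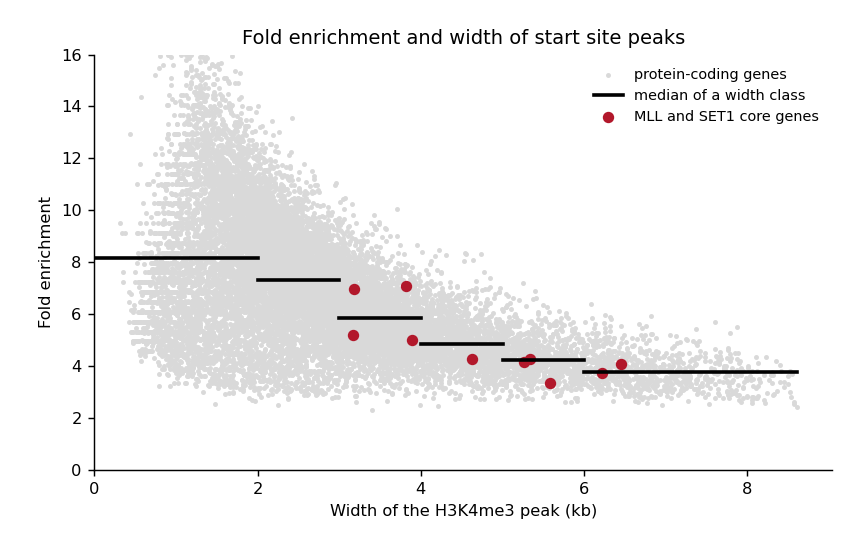
Fold enrichment (vertical axis, a ratio) against width in kb (horizontal axis) for H3K4me3 peaks over start sites. Grey points are protein-coding genes, black lines the medians of width classes and red points the MLL and SET1 genes, and 40 peaks above the axis top of 16 are not drawn. The class medians decline from 8.16 to 3.78, and 8 of the 10 member peaks lie below the overall median of 6.41, with Dpy30 at 7.08 and the upstream Ash2l start at 6.98 above it.

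Away from their own starts, 7 of the 10 genes had further H3K4me3 peaks, 14 in all, against 45.0% of protein-coding genes with such a peak. Among peaks not below the median fold enrichment of the list, 4 of the genes had one. The share of protein-coding genes in that stricter list was not computed, so this count has no background beside it. Kmt2b, Ash2l and Wdr5 had none. The catalytic genes, which include the longest, held 12 of the 14. The peaks held 24 to 889 tags, with a median of 141. Of these peaks 8 touched an exon, 4 lay in introns and 2 lay upstream of the gene.

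Of these peaks 3 covered the start of a neighbouring gene. At Setd1a, a peak of 889 tags at chr7:127766726-127772563 covered the start of Orai3, and a peak of 199 tags at chr7:127800084-127801614 covered the start of Hsd3b7. At Kmt2d, a peak of 528 tags at chr15:98828630-98832417 covered the start of Prkag1. Upstream of Rbbp5, a peak of 520 tags at chr1:132468707-132473792 was 5086 bp wide and held no annotated start of another gene.

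Apart from those of Setd1b, the peaks inside the genes held at most 152 tags. Kmt2c, the longest member at 226986 bp, had an intronic peak of 152 tags at chr5:25471613-25473141, 26465 bp downstream of the start, with a fold enrichment of 11.16. Its other internal peaks held 37 and 24 tags. Kmt2a had internal peaks of 71 and 43 tags. At Kmt2d, a peak of 106 tags at chr15:98838902-98840399 lay for 1123 of its 1498 bp in a single exon, and Dpy30 had an intronic peak of 130 tags at chr17:74309761-74311845.

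ASH2L peaks were found at Dpy30 and Wdr5 only. Both lay over a start site, and the core genes Ash2l and Rbbp5 and the 6 catalytic genes had none. Across protein-coding genes, 10.4% had an ASH2L peak at the gene and 7.67% had one over a start site. Among the genes with H3K4me3 over a start site the share was 10.9%. A count of 2 in 10 genes is near these shares and is not a result about the members. Among peaks with a p-value score of at least 100, 0 ASH2L peaks were left at the members, and 1.08% of protein-coding genes had one.

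At Dpy30 the ASH2L peak, chr17:74316119-74316786, was 668 bp wide and held 30 tags, with an exact Poisson interval of 20.2 to 42.8. Its summit lay 29 bp upstream of the reference start, inside the printed main start sequence, all of which the peak covered. The fold enrichment was 5.84 and the p-value score 79.2. At Wdr5 the peak, chr2:27514814-27515763, was 950 bp wide with 46 tags (33.7 to 61.4), a fold enrichment of 5.37 and a score of 84.1. Its summit lay 191 bp inside the gene. The tag intervals of the 2 peaks overlapped, and per kb they held 44.9 and 48.4 tags.

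Both ASH2L peaks lay wholly inside the H3K4me3 peak of the same gene. The summits of the marks were 11 bp apart at Dpy30 and 225 bp apart at Wdr5. Of all ASH2L start site peaks, 95.4% overlapped an H3K4me3 peak, so the overlap at the members follows the list as a whole. In the ASH2L list, Dpy30 was at percentile 41.2 of width and 44.5 of tags, and Wdr5 at percentile 81.2 of width and 83.4 of tags. Their scores were at percentiles 76.3 and 81.0 of a list whose median was 61.5 and whose cutoff was 50, and their fold enrichments at percentiles 68.6 and 49.9. Both peaks thus ranked higher in the list by score than by fold enrichment.

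At the other 8 genes the nearest ASH2L peak lay far from the start. The distance was 53226 bp at Kmt2b, 55158 bp at Ash2l and 59438 bp at Rbbp5. It was 98731 bp at Setd1a, 121267 bp at Setd1b and 133008 bp at Kmt2d, and 183860 bp at Kmt2c and 398171 bp at Kmt2a. The smallest ASH2L peak in the list held 17 tags, so ASH2L signal below about that number would not be seen. H3K4me3 tags at the start did not order the genes by ASH2L, since Kmt2c and Kmt2a held more H3K4me3 tags than Dpy30 and had no ASH2L peak.

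The Ash2l gene was examined exon by exon, because a cDNA transgene carries exons without introns, and reads that lie within 1 exon of it can map to that exon of the endogenous gene. Transcript Ash2l-201 has 16 exons of 60 to 1513 bp, with a median of 96 bp and 1869 coding bp in all. No exon overlapped an ASH2L peak. The first 3 exons lay within the H3K4me3 peak over the main start, and the other 13 exons lay in no peak of either map. There was no peak on an exon of Ash2l away from its start sites. The smallest H3K4me3 peak in that list held 19 tags, so reads from the transgene below the threshold of the peak caller would not appear. Counted over coding bases, 5 of the 16 exons were at least as long as the tag size in the header of the H3K4me3 list, and 4 were at least as long as that of the ASH2L list. How well reads of a cDNA would map to these exons was not tested, and the absence of exon peaks does not show the absence of such reads. The species of the cDNA and the number of integrated copies are not given in the sources used here, and reads of a cDNA that differs in sequence might not map to these exons.

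**Figure D4:**
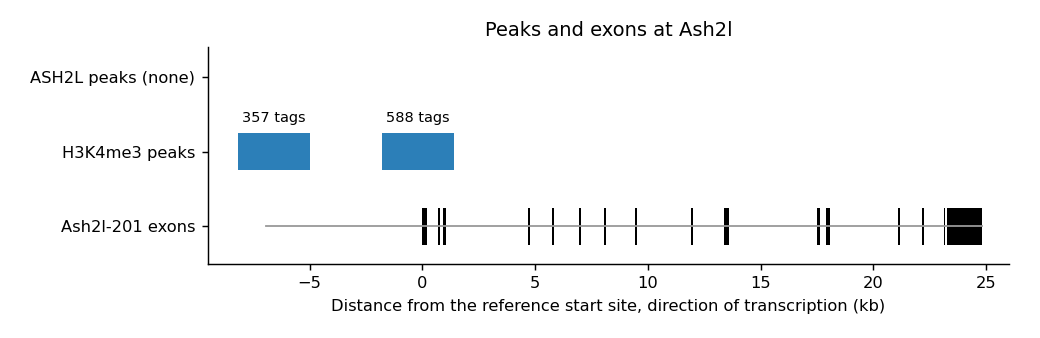
Peaks and exons at Ash2l by distance in kb from the reference start site in the direction of transcription (horizontal axis), in 3 rows for ASH2L peaks, H3K4me3 peaks and the exons of Ash2l-201. Blue bars are H3K4me3 peaks with their tags, black bars are exons and the grey line is the gene body. The peak of 588 tags covers the reference start and that of 357 tags the upstream start, while other annotated starts lie in no peak. No ASH2L peak is present, and the 13 exons from about 5 kb onward have no peak.

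The printed promoters were searched on both strands for 6 short motifs that are common near start sites. GGGCGG, the core of the GC box, was found 12 times at Kmt2c and 2 times at Wdr5, and 35.7% of all promoters held it. Among the promoters not printed it was found 5 times at Kmt2a and 4 times at Kmt2d. AAGATGG was found at Wdr5 and at Setd1a, and 6.34% of all promoters held it. CCAAT was found in the upstream Dpy30 promoter, and 37.4% of all promoters held it. The Rbbp5 promoter and the printed main promoter of Dpy30 held no match. The remaining motifs had no match at the 7 genes. These were CCGGAAG, held by 8.86% of all promoters, the TATA box as TATAAA, held by 13.6%, and GCGCATGC, held by 2.71%. The printed promoters of Dpy30 and Wdr5, which had an ASH2L peak, thus shared no searched motif, although another Dpy30 start within the same peak had 1 match to GGGCGG.

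Further genes of H3K4 methylation were taken for comparison from fixed lists. Of 12 genes for partners that belong to particular MLL or SET1 complexes, 11 had H3K4me3 over a start site, with a median width of 3593 bp and 620 tags, and none had an ASH2L peak at the gene. Over all protein-coding genes these shares were 68.4% and 10.4%. The exception for H3K4me3 was Wdr82, which encodes a SET1 partner. Of 6 genes for H3K4 demethylases, 4 had H3K4me3 over a start site, with a median width of 3986.5 bp and 771 tags. ASH2L peaks lay over a start site of Kdm5a and Kdm1a and elsewhere at Kdm5b. Of 20 genes for other histone lysine methyltransferases, 19 had H3K4me3 over a start site, with a median width of 3299 bp, and 3 had an ASH2L peak (Ezh2, Ehmt1 and Suv39h2). The median width of 4944 bp at the MLL and SET1 genes was above those of the other lists, but no test was made between lists of this size.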

How the data were processed

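CUT&RUN peaks of HA-ASH2L and H3K4me3 in E14 cells were used as deposited. According to the methods and file headers, the authors mapped reads to mm10 with Bowtie2, kept short fragments, pooled the duplicates and ran MACS (1.4.3 in the headers) without a control at a p-value cutoff of 1e-05, keeping 1 tag per position. The tag sizes in the headers, 151 and 142 bp, are above the size limit of the methods, so it is not settled which fragments were counted. The deposited tag counts are whole numbers per peak and were not normalized. Fold enrichment, as deposited, is a ratio that sets the summit against a local background from up to 10000 bp. The deposited score is −log10 of the p-value multiplied by 10. The deposited width and summit are in bp.

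Peaks were assigned to GENCODE vM21 genes on GRCm38 (mm10) with a minimum overlap of 1 bp. No peak ended past the end of its chromosome in that assembly. The reference start was that of the principal transcript at which most transcript starts lay within 500 bp, and ties took the most upstream. Percentiles describe a peak among start site peaks of protein-coding genes or in its list. No test was made, since each map is a single merged list, and intervals of tags are exact Poisson intervals at 95% that cover counting error only. All peaks of the 10 genes were eligible to be named, with at most 3 away from the start per gene. The members and the gene lists were chosen with earlier results of these data known. The procedures were tested on simulated data. The scripts ran in Python 3.11.15 (scipy 1.17.1, pandas 2.3.3, numpy 2.4.6, matplotlib 3.10.9). For 13 results, 8 alternatives were tried.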

Additional observations from a re-analysis of the deposited data

How the results depend on the processing

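For 13 results, 104 alternative values were computed, of which 83 stayed within 1.5 times the reported count or median, or within the interval of a share, and 21 did not. The stricter peak lists had the largest effect. Among peaks not below the list's median fold enrichment, 6 H3K4me3 peaks at 6 genes remained, 2 genes (Ash2l and Dpy30) kept a start site peak with a median of 553.5 tags, 4 genes had a peak away from the start, 1 ASH2L peak overlapped H3K4me3 and 1 peak lay on an exon of Ash2l. The background then was 36.4% for H3K4me3 over a start site and 5.13% for ASH2L at the gene. None was computed for peaks away from the start. With a p-value score of at least 100, 0 ASH2L peaks were left at the members, and so 0 genes with ASH2L at the gene or over a start and 0 overlaps, with backgrounds of 66.0% and 1.08%. The background for ASH2L was 9.66% over gene bodies alone and 11.2% with 10000 bp upstream. The background for H3K4me3 over a start was 67.0% with starts of protein-coding transcripts, 67.4% with RefSeq and 71.9% with 2500 bp on both sides. In this last setting Setd1b gained a start site peak, its peak of 109 tags, near an annotated start inside the gene. With an overlap of at least 200 bp, 1 peak lay on an exon of Ash2l. No paired analysis was possible because the duplicates were merged before peak calling.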
